A study of Mus musculus with 77 samples.

Results

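The genes described here are the Notch ligands and the genes that shape how a cell presents them: Dll1, Dll3, Dll4, Jag1 and Jag2, the fringe genes Mfng, Lfng and Rfng, the ubiquitin ligase Mib1, and Dlk1. They were chosen by name, with earlier results of these data known. They are 10 of the 46078 mouse genes in the count table, and all 10 had a row there. They were followed in mouse pancreatic duct cells that were made to express the endocrine master regulator Ngn3 (gene symbol Neurog3), either as wild type (WT) or as 6S-A, a form whose serine-proline phosphorylation sites were changed to alanine.

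The cells came from C57BL/6 organoids, which are duct cells of adult pancreas grown in three-dimensional culture. The organoids carried lentiviral, doxycycline-inducible vectors encoding GFP alone, GFP with WT Ngn3 or GFP with 6S-A Ngn3, and sorted pools of 50 cells were sequenced. After 2 days of induction the groups were GFP only, WT Ngn3 and 6S-A Ngn3, all GFP-positive and all infected, with 18 pools each. After 8 days the groups were WT Ngn3 and 6S-A Ngn3 cells and, as controls, the no-color cells sorted from WT organoids and from 6S-A organoids, with 4 to 6 pools each after 1 WT Ngn3 pool of low depth was left out. The 8-day controls are therefore neighbours of the Ngn3 cells that show no GFP, and differ in kind from the infected GFP only cells used at 2 days. Each group had 3 biological replicates, each the sum of its pools. All cells were at passage 2, except replicate 3 of every 8-day group, which was at passage 5 and rested on 1 pool. Replicate 2 of the 8-day WT Ngn3 cells also rested on 1 pool, since its other pool was the one left out. The transgene was overexpressed from a vector, so the levels of Ngn3 are not those of an embryonic progenitor. Whether the replicates came from separate mice is not stated in the labels, and p-values measure the spread between these replicates only.

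Notch signalling runs between neighbouring cells. A ligand of the Delta-like or Jagged type on a cell binds a Notch receptor on the next, and Mib1 adds ubiquitin to the ligand so that its endocytosis pulls on the receptor and exposes it to cleavage. Fringe enzymes add a sugar to the receptor's extracellular repeats, which in general favours Delta-like over Jagged ligands. In the embryonic pancreas, Ngn3-positive progenitors present Dll1 and hold back their neighbours through Notch and Hes1, the classical case of lateral inhibition in this tissue.

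The sequences before the transcription starts of 3 of these genes are shown as examples of genes that were higher in 6S-A Ngn3 cells at 2 days (below). They are the 250 bases before the start, from RefSeq on GRCm38.p6, and were chosen with the expression values known. Capitals mark every CANNTG, the E-box core that basic helix-loop-helix factors such as Ngn3 bind, and every TGGGAA, the core bound by the Notch effector Rbpj, on either strand.
Dll4, chr2:119325534-119325783, + strand: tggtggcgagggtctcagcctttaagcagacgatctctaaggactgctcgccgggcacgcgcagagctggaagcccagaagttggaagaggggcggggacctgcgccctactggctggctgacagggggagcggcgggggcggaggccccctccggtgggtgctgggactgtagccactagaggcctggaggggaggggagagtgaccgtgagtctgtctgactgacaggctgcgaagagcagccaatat
Dll1, chr17:15376933-15377182, - strand: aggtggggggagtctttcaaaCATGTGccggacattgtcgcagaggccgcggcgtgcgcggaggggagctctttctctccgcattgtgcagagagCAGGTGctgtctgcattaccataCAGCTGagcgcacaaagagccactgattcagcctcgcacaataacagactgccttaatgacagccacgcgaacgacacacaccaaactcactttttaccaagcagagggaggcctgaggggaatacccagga
Lfng, chr5:140607091-140607340, + strand: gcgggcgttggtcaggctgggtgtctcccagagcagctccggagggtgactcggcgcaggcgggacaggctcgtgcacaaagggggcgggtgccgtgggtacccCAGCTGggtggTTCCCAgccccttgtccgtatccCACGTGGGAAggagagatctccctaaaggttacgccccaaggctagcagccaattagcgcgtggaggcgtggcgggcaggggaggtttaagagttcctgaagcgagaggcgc

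The Dll1 window held 3 E-boxes, which began 229, 155 and 132 bases before the start, and no TGGGAA. RefSeq also gives Dll1 another start, within the gene, whose window at chr17:15375824-15376073 is not printed and held 1 E-box, at 220 bases, and no TGGGAA. The Lfng window held 2 E-boxes, at 146 and 112 bases, and 2 copies of TGGGAA or its reverse complement TTCCCA, at 135 and 108 bases, the second of which overlapped an E-box. The Dll4 window, before the gene with the largest change of the 3, held neither motif, and nor did that of Jag2, which also rose with 6S-A Ngn3 and is not printed. An E-box is common in windows of this kind: 66.2% of the 32851 RefSeq windows held at least 1, and 21.6% held a TGGGAA. Of the 9 members looked up, 8 had an entry and Mfng had none. Other windows not printed held E-boxes too: 1 in Jag1, which fell at 2 days (below), at 82 bases, 1 in Rfng and 2 in Dll3. Dlk1 held none, and none of these windows held a TGGGAA. A match of letters is a description and not a binding site.

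Neurog3 reads bore out the labels of Ngn3 and control cells, but they cannot tell the WT label from the 6S-A label. Neurog3 had 4 reads over the 3 GFP only replicates, against 89.6, 105 and 206 CPM in WT Ngn3 and 101, 117 and 198 CPM in 6S-A Ngn3 at 2 days, where CPM is the count per 1000000 reads on genes after scaling between replicates. At 8 days it was at 6.86, 14.2 and 46.1 CPM in WT and 9.85, 12.8 and 15.4 CPM in 6S-A cells, and was at 0 to 0.989 CPM in no-color cells. The 2 forms did not differ in this level by more than their spread at 2 days (log2 difference 0.05, SE 0.33), with a 95% interval from -0.69 to 0.78. Transgene reads and endogenous Neurog3 reads fall in 1 row. Ductal markers, 10 genes, were high in every group but not equally: they summed to 17050 to 18990 CPM in GFP only, 10610 to 11350 CPM in WT Ngn3 and 8845 to 9558 CPM in 6S-A Ngn3 cells at 2 days, with no overlap and none of the 10 at 0. At 8 days they summed to 14040 to 16530 CPM in WT and 10140 to 25380 CPM in 6S-A Ngn3 cells, against 16750 to 40860 and 32240 to 37590 CPM in their no-color neighbours. Depth was 17757303 to 26627347 reads on genes per replicate at 2 days and 2397470 to 17919627 at 8 days. The shallowest, replicate 3 of the no-color cells from WT organoids, also had the largest mitochondrial share, 17.9%. The mitochondrial share of 6S-A Ngn3 replicates 1, 2 and 3 at 8 days was 3.72, 8.70 and 12.7%, and replicate 3 had the lowest Dll4, Dll1 and Jag1 of that group (below); the part of this share in those values was not tested.

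Among the Delta-like ligands, Dll4 separated both groups of Ngn3 cells from their control at 2 days. Dll4, chr2:119325784-119335962 on the + strand, is best known as the ligand of endothelial tip cells and of T cell development. At 2 days it was at 0.805, 0.617 and 0.370 CPM in GFP only, at 10.8, 7.69 and 28.7 CPM in WT Ngn3 and at 22.8, 9.84 and 32.8 CPM in 6S-A Ngn3 replicates 1, 2 and 3. Every Ngn3 replicate lay above every control, and within each Ngn3 group replicate 2 was the lowest and replicate 3 the highest. The log2 fold change over GFP only was 4.70 (SE 0.66, adjusted p = 0.00111) with WT Ngn3 and 5.16 (SE 0.67, adjusted p = 0.000403) with 6S-A Ngn3, which is 25.9-fold and 35.8-fold. Here and below, p-values are from edgeR's quasi-likelihood test, adjusted by Benjamini-Hochberg over all genes tested, and a gene is said to rise or fall where the adjusted p is under 0.05.

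Dll4 was also present in Ngn3 cells at 8 days. WT Ngn3 replicates had 6.58, 9.60 and 17.4 CPM, from 71, 30 and 88 reads, and their no-color neighbours had 0.0656, 0 and 0.576 CPM, from 2 reads in all. The pooled ratio was 130 with a 95% counting interval of 35.6 to 1083, and the fitted log2 fold change was 6.79 (SE 1.64), but with an adjusted p of 0.120 it did not pass the threshold. 6S-A Ngn3 replicates had 36.5, 12.5 and 0.307 CPM, the last from 2 reads, and their no-color neighbours 0, 0.180 and 0 CPM, also 2 reads in all. The pooled ratio was 402 (counting interval 111 to 3322), with most reads from replicate 1, and the fitted log2 fold change was 7.86 (SE 1.58, adjusted p = 0.0307). Counting intervals and floors use reads summed over the replicates, so they leave out the spread between replicates. The libraries had no molecular identifiers, and reads need not be separate molecules. The intervals may therefore be too narrow even for counting error.

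The 8-day result for Dll4 depended on single replicates and on the choice of control. In 6S-A cells the call was lost without no-color replicate 1, 2 or 3 (adjusted p = 0.162, 0.0798 and 0.169) or without 6S-A replicate 1 (0.103), and was kept without 6S-A replicate 2 (0.0498) or replicate 3 (0.00595), with log2 fold changes from 6.47 to 10.26 over these fits. In WT cells the adjusted p passed the threshold when both no-color groups served as the control (log2 fold change 7.04, adjusted p = 0.00587) and in DESeq2 (0.00087), and was 0.223 without the shallow no-color replicate 3. The 2 forms of Ngn3 did not differ in Dll4 beyond the spread at either time (log2 difference 0.46, 95% interval -0.70 to 1.62 at 2 days, and 0.57, -1.73 to 2.86 at 8 days).

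Read assignment and other cell types bear on Dll4 as follows. The antisense transcript Gm14207 shares exon sequence with it and had 1 read in GFP only, 117 in WT Ngn3 and 121 in 6S-A Ngn3 cells at 2 days. Whether counting used strand is not stated, so reads of the pair cannot be told apart with certainty. Endothelial markers, 8 genes, summed to 3.79 to 5.98 CPM in GFP only, 8.18 to 11.8 in WT Ngn3 and 5.89 to 13.2 in 6S-A Ngn3 cells at 2 days. Within that list Kdr had a mean of 0.744, 3.70 and 4.35 CPM and Pecam1 of 0.0379, 0.325 and 0.753 CPM in GFP only, WT and 6S-A cells. Cdh5 had 3, 1 and 0 reads at 2 days and 0 in all 4 groups at 8 days, controls included. At 8 days the list summed to 1.92 to 7.12 CPM in WT and 6.55 to 9.52 CPM in 6S-A Ngn3 cells, against 4.61 to 9.65 and 6.02 to 8.85 CPM in their neighbours, with overlap in both comparisons. Pecam1 then had 15 reads in WT and 29 in 6S-A Ngn3 cells and 0 in both no-color groups, Kdr had 0 and 3 reads against 5 and 1, and Esam, which gave most of the sum, had a mean of 2.89 and 6.08 CPM against 6.56 and 7.18 CPM. Mesenchymal markers, also 8 genes, summed to 9.95 to 17.6 CPM in GFP only, 47.4 to 108 CPM in WT Ngn3 and 53.6 to 78.1 CPM in 6S-A Ngn3 cells, with Col3a1 at 0 in all 3 groups. Of the mesenchymal sum, Vim alone gave a mean of 70.9 CPM in WT and 66.5 CPM in 6S-A cells. At 8 days the mesenchymal sum was 23.9 to 73.5 CPM in WT and 4.15 to 109.5 CPM in 6S-A Ngn3 cells, against 6.91 to 121 and 0.369 to 60.1 CPM in their neighbours, with Col3a1 at 0 in all 4 groups. Acinar markers, 10 genes, summed to 3.26 to 6.71 CPM in GFP only, 1.08 to 3.13 CPM in WT Ngn3 and 2.71 to 4.77 CPM in 6S-A Ngn3 cells at 2 days. At 8 days they summed to 0 to 6.11 CPM in WT Ngn3 against 11.5 to 20.7 CPM in neighbours, without overlap, and to 0.307 to 12.4 CPM in 6S-A Ngn3 against 7.004 to 11.2 CPM. The defining acinar genes Cpa1 and Ptf1a were at 0 in all 7 groups. The part of these lists in the results on ligands was not tested. In bulk pools, fewer cells of a type and less RNA per cell cannot be told apart.

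**Figure D1:**
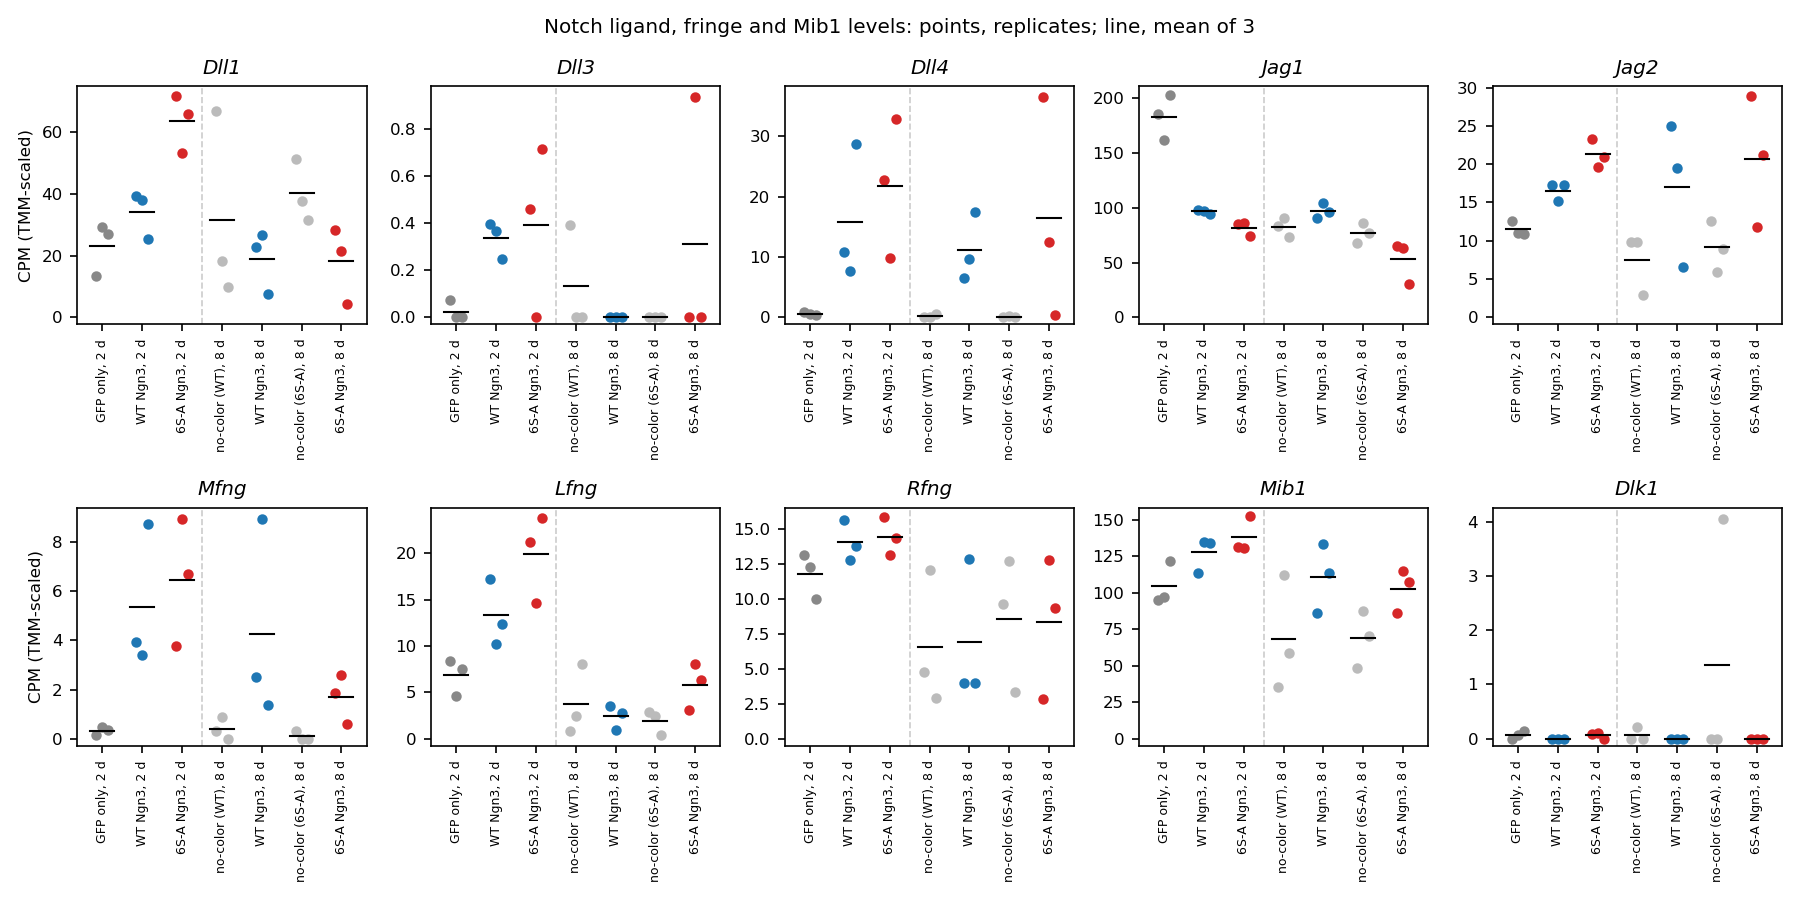
Level of each of the 10 genes in the 7 groups, in CPM on a linear axis of its own range for each gene. Points are biological replicates 1 to 3 from left to right, black lines are means, and the dashed line parts the 2-day from the 8-day groups. Dll4 and Mfng sat near 0 in all 3 control groups, and Jag1 was highest in GFP only cells, at 162 to 203 CPM.

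Single pools gave the same picture of Dll4 at finer grain. At least 1 Dll4 read was found in 11 of 18 GFP only pools, 18 of 18 WT Ngn3 pools and 18 of 18 6S-A Ngn3 pools at 2 days. At 8 days it was found in 4 of 4 WT and 6 of 6 6S-A Ngn3 pools, but in 2 of 6 and 1 of 6 pools of their no-color neighbours. With at least 3 reads required, the counts were 6 of 18 in GFP only, 18 of 18 in WT and 17 of 18 in 6S-A pools at 2 days, and 4 of 4 in WT Ngn3, 5 of 6 in 6S-A Ngn3 and 0 of 6 in each no-color group at 8 days. The level varied from pool to pool within a group, from 4.25 to 57.1 CPM over the WT Ngn3 pools at 2 days (median 11.8) and from 0.719 to 59.4 CPM over the 6S-A pools (median 20.5), here as CPM of reads on genes without further scaling. Pools of 1 replicate share its culture, so they were not treated as replicates.

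**Figure D2:**
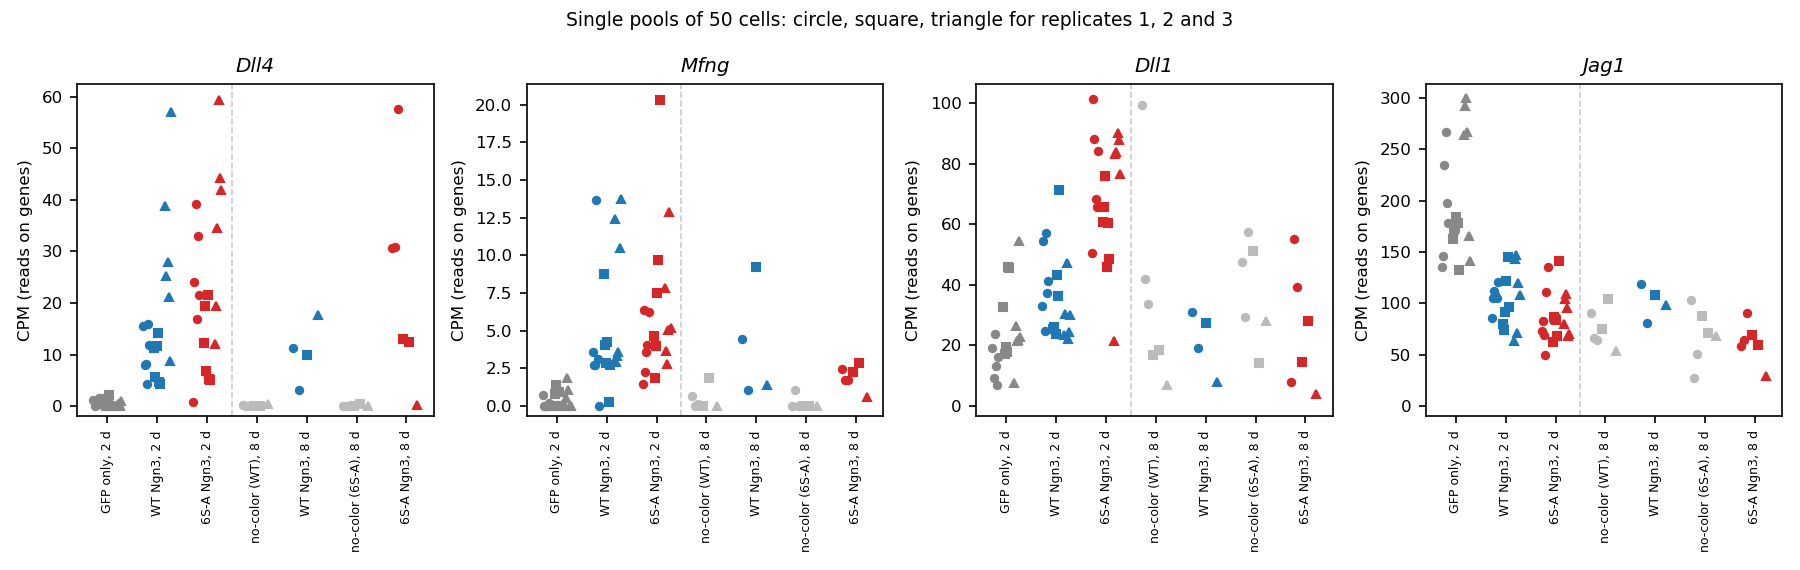
Dll4, Mfng, Dll1 and Jag1 in every pool of 50 cells, in CPM of reads on genes on linear axes. Circles, squares and triangles are pools of replicates 1, 2 and 3, and the dashed line parts the 2-day from the 8-day groups. Dll4 reached 57.1 CPM in WT and 59.4 CPM in 6S-A Ngn3 pools at 2 days but no more than 2.06 CPM in GFP only pools.

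Dll1, the ligand of pancreatic lateral inhibition, followed another course. The gene lies at chr17:15367354-15376872 on the - strand. At 2 days it was at 13.4, 29.4 and 27.1 CPM in GFP only, 39.2, 38.1 and 25.3 CPM in WT Ngn3 and 71.7, 53.5 and 66.0 CPM in 6S-A Ngn3 cells. The WT values overlapped those of GFP only, while the 6S-A values lay above both other groups. Dll1 rose with 6S-A Ngn3 (log2 fold change 1.45, SE 0.27, adjusted p = 0.00232, 2.74-fold) and not past the threshold with WT Ngn3 (0.56, SE 0.27, adjusted p = 0.235). The direct comparison of 6S-A with WT Ngn3 gave a log2 difference of 0.89 (SE 0.26, 95% interval 0.31 to 1.47) with an unadjusted p of 0.00585, and an adjusted p of 0.532 over all genes.

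At 8 days Dll1 did not pass with either form. The values were 22.8, 26.6 and 7.71 CPM in WT Ngn3 against 66.8, 18.3 and 9.79 CPM in no-color neighbours, and 28.5, 21.6 and 4.30 CPM in 6S-A Ngn3 against 51.4, 37.8 and 31.7 CPM. WT Ngn3 and no-color values overlapped. All 6S-A Ngn3 values lay below those of their neighbours, yet the log2 fold change of -1.14 (SE 0.69, adjusted p = 0.738) did not pass, nor did -0.71 (SE 0.69, adjusted p = 0.755) in WT cells. The change of the 6S-A effect from 2 to 8 days was -2.59 on the log2 scale (SE 0.84, unadjusted p = 0.00549, adjusted p = 0.721). That change also holds the switch from GFP only to no-color controls, and time and type of control cannot be told apart. The antisense gene A930024N18Rik, which shares exon sequence with Dll1, had 32, 111 and 142 reads in GFP only, WT and 6S-A cells at 2 days, against 1714, 2229 and 4070 reads of Dll1.

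Dll3 and Dlk1 were at the limit of detection. Dll3, a ligand-like protein that acts within its own cell in somite formation, had 2 reads in GFP only, 22 in WT Ngn3 and 26 in 6S-A Ngn3 cells at 2 days, the 6S-A reads all from replicates 1 and 3. The pooled ratio to GFP only was 12.8 (counting interval 3.13 to 112) for WT and 15.4 (3.84 to 133) for 6S-A, with adjusted p = 0.133 and 0.0809. Reads of Dll3 came from 5 of 18 WT and 6 of 18 6S-A pools. Dlk1, a non-canonical ligand-like protein of progenitor and fetal tissues, had 0 to 5 reads in 6 of the 7 groups and 33 in the no-color cells from 6S-A organoids, all from replicate 3, a single pool at passage 5. At 8 days Dll3 had 8 reads in 6S-A Ngn3 replicate 2 and 6 in replicate 1 of the no-color cells from WT organoids. Both genes were below the detection filter at 8 days and were not tested there.

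Jag1 fell with both forms of Ngn3 at 2 days. The gene, at chr2:137081456-137116644 on the - strand, encodes the Jagged ligand of duct and bile duct epithelium. It was at 185, 162 and 203 CPM in GFP only, 98.1, 97.4 and 94.8 CPM in WT Ngn3 and 85.3, 86.0 and 74.7 CPM in 6S-A Ngn3 cells at 2 days. The 3 groups did not overlap, and the replicates of WT Ngn3 lay within a few percent of each other. Jag1 fell by 0.91 on the log2 scale with WT Ngn3 (SE 0.12, adjusted p = 0.000143, 1.88-fold lower) and by 1.16 with 6S-A Ngn3 (SE 0.12, adjusted p = 1.05e-05, 2.24-fold lower). The difference between the forms, -0.25 (SE 0.12, 95% interval -0.50 to 0.00), had an adjusted p of 0.864. The summed ductal markers given above stood in the same order at 2 days, highest in GFP only and lowest in 6S-A Ngn3 cells, without overlap. Spp1 gave the largest share of that sum (mean 8812, 4572 and 3827 CPM in GFP only, WT and 6S-A cells) and stood in this order without overlap, as did Epcam, Krt18, Krt19 and Muc1. Krt8, Krt7, Cftr and Sox9 overlapped between GFP only cells and cells with either or both forms of Ngn3. Sox9 was at a mean of 370, 380 and 353 CPM and Krt7 at 1320, 1282 and 1217 CPM. The 6 hormone genes summed to 0.370 to 0.842 CPM in GFP only, 54.5 to 190 CPM in WT and 203 to 657 CPM in 6S-A Ngn3 cells, with Ins1 and Ins2 at 0 in all 3 groups. The part of either list in the fall of Jag1 was not tested.

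At 8 days Jag1 did not separate Ngn3 cells from no-color neighbours past the threshold. WT Ngn3 cells had 90.4, 105 and 96.4 CPM and their neighbours 83.8, 90.8 and 73.7 CPM (log2 fold change 0.25, SE 0.33, adjusted p = 0.828). 6S-A Ngn3 cells had 64.8, 63.8 and 30.4 CPM and their neighbours 68.3, 86.1 and 77.3 CPM (-0.55, SE 0.33, adjusted p = 0.734). Against no-color cells of the same replicate number, Jag1 was higher in every WT pair and lower in every 6S-A pair. Neither comparison passed with the number as a block. The no-color replicates, at 68.3 to 90.8 CPM, all lay below the GFP only replicates of 2 days, a comparison across times that was not tested. The change of the WT effect from 2 to 8 days, 1.15 on the log2 scale (SE 0.35, unadjusted p = 0.00297, adjusted p = 0.632), did not pass, and it too holds the switch of controls. Values of 6S-A cells at 8 days all lay below those of WT cells (log2 difference -0.88, SE 0.33, unadjusted p = 0.0167, adjusted p = 1).

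Jag2, the other Jagged ligand (chr12:112907819-112929776, - strand), was low at 2 days. It had 12.6, 11.02 and 10.8 CPM in GFP only, 17.2, 15.1 and 17.3 CPM in WT Ngn3 and 23.3, 19.6 and 20.9 CPM in 6S-A Ngn3 cells, with no overlap between the groups. The change passed the threshold with 6S-A Ngn3 (0.89, SE 0.17, adjusted p = 0.00158) and lay just outside it with WT Ngn3 (0.54, SE 0.17, adjusted p = 0.0501). The difference between the forms, 0.35 (SE 0.16, adjusted p = 0.861), did not pass. The WT value was inside it in 5 of the alternative fits, with adjusted p from 0.00534 in DESeq2 to 0.0470. At 8 days WT Ngn3 cells had 24.9, 19.5 and 6.52 CPM against 9.78, 9.80 and 2.88 CPM in neighbours, and 6S-A Ngn3 cells 28.9, 11.8 and 21.2 CPM against 12.6, 5.93 and 8.97 CPM. The fold changes of 1.17 (SE 0.63) and 1.16 (SE 0.62) on the log2 scale had adjusted p = 0.504 and 0.629. Jag2 was higher in Ngn3 cells than in the no-color cells of the same replicate number in 3 of 3 pairs in each comparison, and with the number as a block the adjusted p was 0.350 and 0.388.

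Per length of exon, where levels of different genes can be set side by side, Jag1 was the leading ligand in GFP only cells at 2 days and shared that place with Dll1 in 6S-A cells at that time. In GFP only cells Jag1 was at 31.5 ± 3.52 CPM per kb (SD, n = 3), above Dll1 at 5.52 ± 2.04, Jag2 at 1.65 ± 0.14 and Dll4 at 0.155 ± 0.057. In WT Ngn3 cells at 2 days the order was Jag1 at 16.6 ± 0.30, Dll1 at 8.11 ± 1.83, Dll4 at 4.08 ± 2.95 and Jag2 at 2.37 ± 0.17, and the spread of Dll4 covered its neighbour Jag2. The spread of Dll4 also overlapped that of Dll1, and in replicate 3 Dll4 was above Dll1 (7.46 against 5.99 CPM per kb). In 6S-A Ngn3 cells Dll1 at 15.1 ± 2.21 and Jag1 at 14.1 ± 1.09 lay within their spread of each other, as did Dll4 at 5.67 ± 2.99 and Jag2 at 3.05 ± 0.27. At 8 days Jag1 was above Dll1 in all 3 replicates of both Ngn3 groups, with means of 9.09 and 4.30 CPM per kb in 6S-A cells. In no-color cells Dll1 was above Jag1 in replicate 1 of each group (15.8 against 14.4 and 12.2 against 11.7 CPM per kb) and below it in the other replicates.

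The balance of the 2 ligand types can be read from the summed level per kb of Dll1 and Dll4 over that of Jag1 and Jag2. At 2 days it was 0.101, 0.243 and 0.179 in GFP only, 0.626, 0.584 and 0.718 in WT Ngn3 and 1.27, 0.866 and 1.53 in 6S-A Ngn3 replicates. At 8 days it was 0.372, 0.422 and 0.363 in WT Ngn3 and 1.06, 0.663 and 0.133 in 6S-A Ngn3 cells, against 1.00, 0.255 and 0.189 and 0.899, 0.576 and 0.516 in their no-color neighbours. The 3 groups did not overlap at 2 days. At 8 days each Ngn3 group overlapped its own no-color neighbours, while WT Ngn3 cells lay below the no-color cells from 6S-A organoids. Dll1 was present in every group at 8 days. Dll4 gave 24.0, 28.4 and 71.2% of the Delta-like level in WT Ngn3 and 58.4, 38.8 and 7.26% in 6S-A Ngn3 cells, and 0 to 6.05% in no-color cells. The lowest share in Ngn3 cells, 7.26%, rests on 2 Dll4 reads and the highest in no-color cells on 1. The ratio is a description of the members and carries no test.

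**Figure D3:**
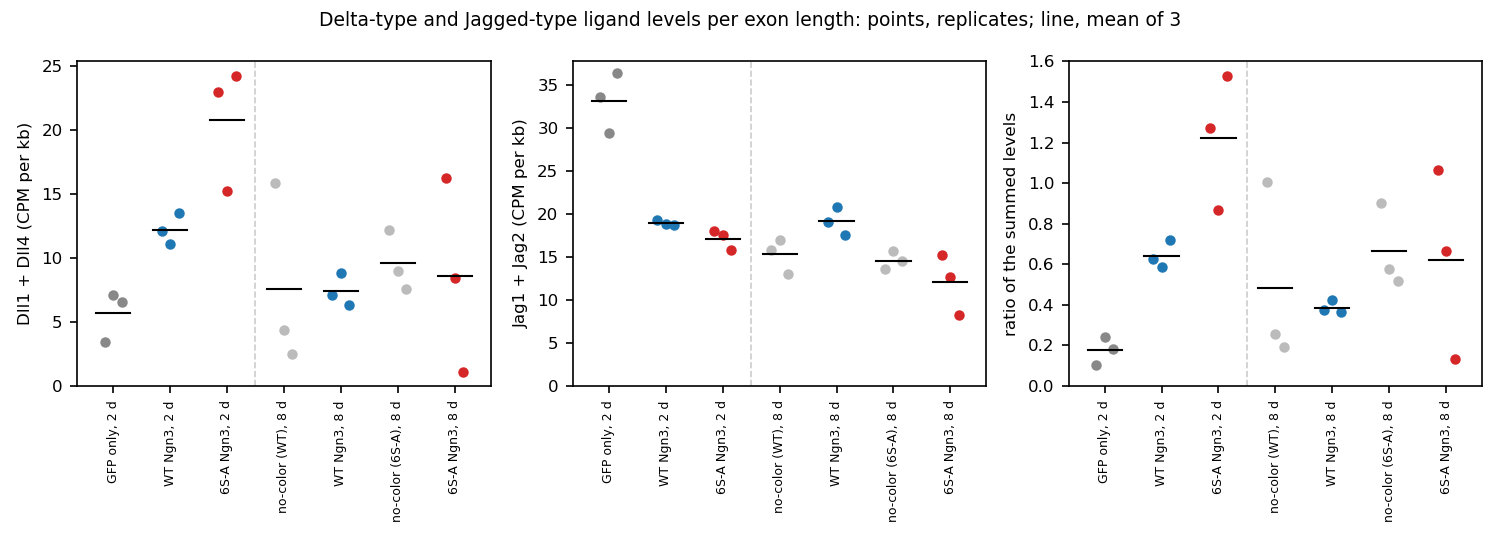
Summed level of Dll1 and Dll4 (left) and of Jag1 and Jag2 (middle), in CPM per kb of exon, and their ratio (right), on linear axes. Points are replicates 1 to 3 and lines are means; the dashed line parts the 2-day from the 8-day groups. At 2 days the ratio was 0.101 to 0.243 in GFP only and 0.866 to 1.53 in 6S-A Ngn3 cells.

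Of the fringe genes, Mfng (manic fringe, chr15:78755882-78773475, - strand) also separated Ngn3 cells from controls. At 2 days it was at 0.146, 0.463 and 0.370 CPM in GFP only, 3.93, 3.40 and 8.72 CPM in WT Ngn3 and 3.76, 8.95 and 6.70 CPM in 6S-A Ngn3 cells. Every Ngn3 replicate lay above every control. Mfng rose by 4.04 on the log2 scale with WT Ngn3 (SE 0.54, adjusted p = 0.000186, 16.4-fold) and by 4.29 with 6S-A Ngn3 (SE 0.54, adjusted p = 6.34e-05, 19.6-fold). It was found in 8 of 18 GFP only pools, 17 of 18 WT and 18 of 18 6S-A pools.

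At 8 days Mfng reads were few. WT Ngn3 replicates had 27, 28 and 7 reads and their neighbours 13 in all (pooled ratio 6.57, counting interval 3.58 to 13.0), and 6S-A Ngn3 replicates had 31, 22 and 4 reads and their neighbours 5 in all (12.8, 5.19 to 41.1). The Ngn3 and no-color values did not overlap in either comparison. The log2 fold changes of 3.17 (SE 1.45) and 3.74 (SE 1.49) had adjusted p = 0.434 and 0.419.

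Lfng (lunatic fringe, chr5:140607320-140615545, + strand), the fringe of the somite clock, started from a higher level and rose with both forms. It was at 8.34, 4.63 and 7.50 CPM in GFP only, 17.3, 10.3 and 12.4 CPM in WT Ngn3 and 21.2, 14.7 and 23.8 CPM in 6S-A Ngn3 cells at 2 days. The log2 fold change was 0.97 (SE 0.27, adjusted p = 0.0328) with WT and 1.54 (SE 0.28, adjusted p = 0.00122) with 6S-A Ngn3. The WT call was lost without GFP only replicate 2 (adjusted p = 0.142), GFP only replicate 3 (0.0628) or WT replicate 1 (0.139). At 8 days the 4 groups held 0.369 to 8.07 CPM, with log2 fold changes of -0.52 (SE 1.05, adjusted p = 0.897) in WT and 1.58 (SE 1.03, adjusted p = 0.775) in 6S-A cells.

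Rfng (radical fringe, chr11:120780746-120784207, - strand) was at nearly the same level in all groups at 2 days, with 9.995 to 13.1 CPM in GFP only, 12.8 to 15.6 in WT Ngn3 and 13.1 to 15.9 in 6S-A Ngn3 cells. Its log2 fold changes were 0.26 (95% interval -0.13 to 0.66) and 0.29 (-0.10 to 0.69), with adjusted p = 0.469 and 0.340. At 8 days its replicates spread from 2.84 to 12.8 CPM over the 4 groups with wide overlap. Per kb, Rfng at 4.74 ± 0.65 was the leading fringe gene in GFP only cells. Lfng had the highest mean in 6S-A cells, at 7.93 ± 1.87, but its spread overlapped that of Rfng at 5.80 ± 0.55. In WT cells Rfng and Lfng lay within their spread of each other (5.64 ± 0.58 and 5.31 ± 1.43).

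Mib1, the ubiquitin ligase needed in the ligand-sending cell, was present throughout, at 95.1, 97.4 and 122 CPM in GFP only, 114, 135 and 134 CPM in WT Ngn3 and 131, 131 and 153 CPM in 6S-A Ngn3 cells at 2 days. The log2 fold changes of 0.29 (SE 0.13, adjusted p = 0.196) and 0.40 (SE 0.13, adjusted p = 0.0525) did not pass, the second by a narrow margin: 6 alternative fits, among them DESeq2 at 0.0284, put it inside the threshold. The WT change passed with the replicate number as a block (0.30, adjusted p = 0.0241). At 8 days they were 0.70 (SE 0.40, adjusted p = 0.534) and 0.57 (SE 0.40, adjusted p = 0.827). The values were then 86.0, 134 and 114 CPM in WT Ngn3 against 35.3, 112 and 58.7 CPM in neighbours, and 86.6, 115 and 107 CPM in 6S-A Ngn3 against 48.6, 87.4 and 70.7 CPM. The groups overlapped, and Ngn3 cells were higher in 3 of 3 same-numbered pairs in each comparison (adjusted p = 0.187 and 0.391 with the replicate number as a block).

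**Figure D4:**
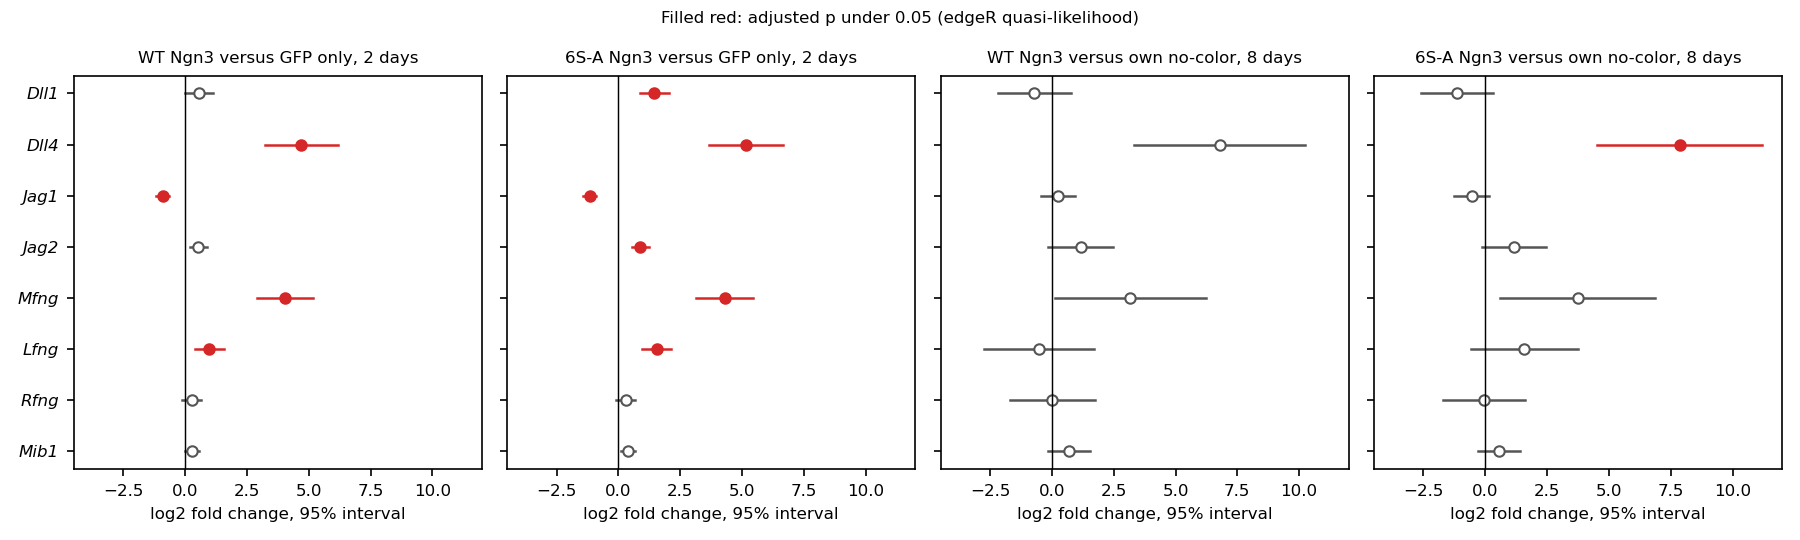
Log2 fold change of the 8 genes tested at both times, with 95% intervals, for each form of Ngn3 over its control. Filled red points passed an adjusted p of 0.05 in edgeR. Jag1 lay below 0 in both 2-day panels, and the intervals were wider at 8 days, where only Dll4 with 6S-A Ngn3 passed, at 7.86.

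Counted over the 10 members, 3 rose (Dll4, Mfng and Lfng) and 1 fell (Jag1) with WT Ngn3 at 2 days, while 6.56% of all 23844 genes tested were called higher and 5.23% lower, 11.8% in either direction. With 6S-A Ngn3, 5 rose (Dll1, Dll4, Jag2, Mfng and Lfng) and 1 fell (Jag1), against 9.43% called higher and 8.62% lower, 18.1% in either direction. The members' median log2 fold change was 0.55 with WT and 1.17 with 6S-A Ngn3, beside 0.02 over all genes in both comparisons. Both comparisons share the GFP only replicates. The members were chosen with earlier results of these data known, so the counts describe them and are no independent test.

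Between 6S-A and WT Ngn3 at 2 days, 0 of 10 members passed in edgeR and 0 in DESeq2, with 2 at an unadjusted p under 0.05 (Dll1 and Jag2), and 0.0126% of all genes, 3 of them, were called. At 8 days 0 of the 8 tested members passed with WT Ngn3 in edgeR, against 0.249% of 19696 genes called, which is 49 genes, and 2 members had an unadjusted p under 0.05 (Dll4 and Mfng). DESeq2 called 1 member there (Dll4) and 421 genes in all. With 6S-A Ngn3 1 of 8 passed in edgeR (Dll4), against 0.584%. Between the 2 forms at 8 days edgeR and DESeq2 each called 0 of 8 members, 1 had an unadjusted p under 0.05 (Jag1), and 0% of all genes were called in edgeR. Between the 2 no-color groups 0 of 8 passed in either tool, 0 had an unadjusted p under 0.05, and 0% of all genes were called in edgeR. For the change of effect between the times, 0 of 10 members passed in either tool for WT and for 6S-A Ngn3, 2 had an unadjusted p under 0.05 in each (Jag1 and Dll3 for WT, Dll1 and Dlk1 for 6S-A), and 0% and 0.00401% of 24945 genes were called in edgeR.

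The rest of the pathway was read from lists of 42 genes: other ligand-like genes and ligand partners, receptors, their processing, the nuclear complex, targets, Hes6 and inhibitors. These lists too were chosen with earlier results of these data known, so their counts are a description. With WT Ngn3 at 2 days 7 of the 42 rose and 2 fell, with a median log2 fold change of 0.16, where 11.8% of all genes were called. With 6S-A Ngn3 11 rose and 4 fell, with a median of 0.20, where 18.1% were called. At 8 days 0 of 40 tested passed with WT and 1 rose with 6S-A Ngn3, where 0.249% and 0.584% of all genes were called.

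Among ligand partners, Dner, a transmembrane protein with Delta-like repeats, went from 12 reads in all GFP only replicates to 9.06 to 42.6 CPM in WT and 33.3 to 51.8 CPM in 6S-A Ngn3 cells (log2 fold change 7.22, SE 0.73, adjusted p = 0.000166, and 8.07, SE 0.73, adjusted p = 4.35e-05). At 8 days Dner had no read in either no-color group and 51 and 233 reads in WT and 6S-A Ngn3 cells. The WT replicates ranged from 0 over 2.41 to 8.00 CPM and the 6S-A replicates from 5.50 over 6.08 to 13.8 CPM, and neither comparison passed (adjusted p = 0.212 and 0.0666). Neurl3, a neuralized-type ubiquitin ligase, fell by 1.45 and 1.93 on the log2 scale with WT and 6S-A Ngn3, and Epn3, an endocytic epsin, fell by 1.18 and 1.62. Neurl1a rose by 1.55 and Epn2 fell by 0.50 past the threshold with 6S-A Ngn3. In the direct comparison of 6S-A with WT Ngn3, 0 of the 42 passed.

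Among receptors, Notch1 rose from 30.1 to 31.6 CPM in GFP only to 56.6 to 80.9 CPM in WT and 57.6 to 90.1 CPM in 6S-A Ngn3 cells (log2 fold change 1.15, SE 0.18, adjusted p = 0.000573, and 1.19, SE 0.18, adjusted p = 0.000263). Notch2 rose with 6S-A Ngn3 (0.39, SE 0.13, adjusted p = 0.0483) and had a log2 fold change of 0.32 with WT Ngn3 (SE 0.13, adjusted p = 0.140). Notch3 and Notch4 did not pass. Pofut1, which adds the O-fucose that fringe enzymes extend, rose by 0.89 and 1.06, and Ncstn, a gamma-secretase subunit, rose by 0.39 with 6S-A Ngn3.

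In the receiving arm, Hes1, the main Notch target of pancreatic progenitors, did not pass at 2 days, at 374 to 541 CPM in GFP only, 412 to 501 in WT and 361 to 541 in 6S-A Ngn3 cells (log2 fold changes 0.09, SE 0.18, and -0.05, SE 0.18). Heyl, another target of the Hey family, had 3 reads in GFP only, 607 in WT and 942 in 6S-A Ngn3 cells at 2 days, pooled ratios of 235 (counting interval 79.9 to 1140) and 371 (126 to 1801), with adjusted p = 0.00123 and 0.000425. At 8 days Hes1 ranged from 25.5 to 145 CPM in WT and 23.3 to 289 CPM in 6S-A Ngn3 cells, against 33.1 to 1114 and 34.9 to 282 CPM in their neighbours, and did not pass (log2 fold changes -2.65, SE 1.46, adjusted p = 0.540, and -0.02, SE 1.37, adjusted p = 1). Heyl then had 0 reads in WT Ngn3 cells and 2 in their neighbours, and 132 in 6S-A Ngn3 cells and 0 in theirs, with adjusted p = 0.683 and 0.264. At 2 days Nrarp, a feedback inhibitor, rose by 1.24 with WT Ngn3 (adjusted p = 0.0478). The other listed targets did not pass at 2 days. Hey1, Hey2 and Dtx1 had pooled ratios to GFP only of 0.584, 0.519 and 0.475 with WT and 0.793, 0.963 and 0.194 with 6S-A Ngn3. Hes5 had 2 reads in GFP only, 50 in WT and 25 in 6S-A Ngn3 cells. The median log2 fold change of the 7 targets was 0.09 with WT and -0.05 with 6S-A Ngn3. Among coactivators with 6S-A Ngn3, Maml2 fell by 0.66 and Maml3 rose by 0.59.

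Hes6, which counters Hes1, rose from 60.1 to 76.7 CPM in GFP only to 512 to 598 CPM with WT and 682 to 783 CPM with 6S-A Ngn3 (log2 fold change 2.99, SE 0.13, adjusted p = 9.96e-09, and 3.38, SE 0.13, adjusted p = 2.96e-09). It was the listed gene that passed at 8 days, in 6S-A cells, at 233 to 336 CPM against 66.4 to 95.5 CPM in neighbours (1.77, SE 0.38, adjusted p = 0.0458). Numbl, related to the Notch inhibitor Numb, rose by 1.81 and 2.07 at 2 days, and Fbxw7, which targets cleaved Notch for destruction, rose by 0.74 with 6S-A Ngn3.

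**Figure D5:**
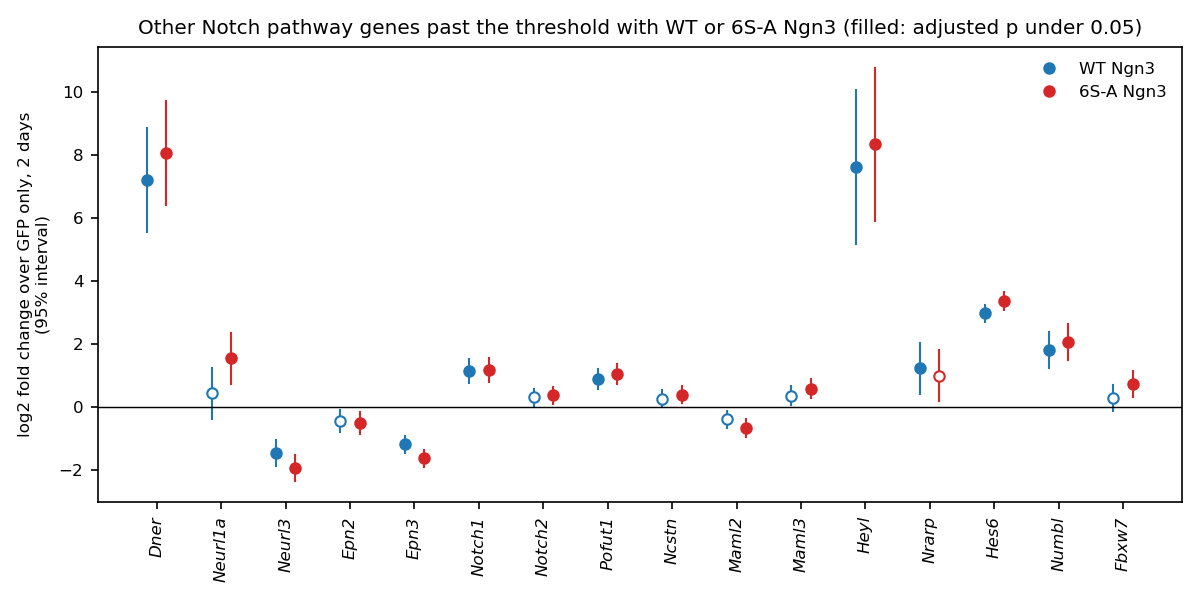
Log2 fold change over GFP only at 2 days, with 95% intervals, of the listed Notch pathway genes that passed an adjusted p of 0.05 with WT Ngn3 (blue) or 6S-A Ngn3 (red). Filled points passed the threshold and open points did not. Dner and Heyl lay highest, at 7.22 to 8.35, and Neurl3, Epn2, Epn3 and Maml2 lay below 0.

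Over the 21 replicates, the genes whose log2 CPM followed Dll4, Mfng and Jag1 most closely were searched among 14637 genes. They were Scin, Hmgn3 and Ptprn2 for Dll4 (Pearson r 0.93, 0.93 and 0.92), Rsad2, Dpysl3 and Apol9b for Mfng (0.93, 0.92 and 0.92), and Pim1, Tnfaip3 and Noct for Jag1 (0.90, 0.86 and 0.85). The replicates share groups, time points and depth, so these values describe the data set and were not tested.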

How the data were processed

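RNA was measured in 77 libraries of 50 sorted cells each (Smart-seq2, Nextera XT). Per the labels and methods, the authors aligned reads with GSNAP to mm10 and counted them per Ensembl gene with HTSeq (0.5.3p3); the deposited values are raw read counts, without molecular identifiers, and strand use is not stated. Of all reads in the table, 14.4% had no feature, 8.06% were ambiguous and 22.5% were not aligned; these rows, and 92 spike-ins, stayed out of library sizes.

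A library was kept with a spike-in share below 30%, more than 1000000 gene reads and more than 10000 detected genes, which 76 met. Technical repeats were summed to 3 replicates per group. A gene had to be seen in 5 or more libraries of a fit to be tested, which was done with edgeR 4.0.16 (R 4.3.3; TMM, robust quasi-likelihood), fitted over 3 groups at 2 days, 4 at 8 days and 7 jointly, with Benjamini-Hochberg adjustment at 0.05. Standard errors come from log2 fold change and F. DESeq2, scran factors, other filters, single repeats, a replicate block and leaving out replicates were alternatives. Levels per kb used summed exon length of GENCODE on GRCm38. The floor for a group without reads was 3 reads; intervals of pooled ratios are exact binomial at 95%.

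Members and lists were chosen with earlier results of these data known. Named were the members, Neurog3, listed pathway genes past the threshold with a few that were not, and for each member called in at least 2 comparisons with a control the 3 genes of highest correlation (prior count 2, mean of at least 1 CPM), of which those for Lfng are not reported here; marker genes named beside a sum were chosen after their values were seen.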

Additional observations from a re-analysis of the deposited data

Results flagged for a closer look

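The WT Ngn3 library left out for low depth (8 days, replicate 2, technical repeat 1; 849278 reads on genes) was looked at on its own. Some genes were higher there than in every no-color pool from WT organoids: Jag2 at 101 CPM (86 reads, no-color maximum 11.8 CPM), Mib1 at 218 CPM (maximum 122), Lfng at 7.07 CPM from 6 reads (maximum 5.84) and Neurog3 at 27.1 CPM (maximum 0.846). Dll1 was lower there, at 2.36 CPM from 2 reads, than in any no-color WT pool or any kept WT Ngn3 pool at 8 days (lowest 7.09 and 7.85 CPM). Dll4 and Mfng had no read in it, which at this depth allows up to 3.53 CPM. Groups held 3 replicates, too few to search for a replicate far from the others. No member's effect differed between the times in the test of the difference after adjustment.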

How the results depend on the processing

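No called member changed direction under any alternative run, and no member was called in the comparisons of 6S-A with WT Ngn3, of the no-color groups or of the times. Counts of all genes moved more. DESeq2 called 97 genes for 6S-A against WT Ngn3 at 2 days, 421 and 502 for WT and 6S-A Ngn3 against no-color cells, 8 between no-color groups, and 78 and 69 for the WT and 6S-A change between times; it called 1 member, Dll4, for WT Ngn3 at 8 days. DESeq2 size factors in edgeR gave 3 for the 6S-A change. With filterByExpr there were 21 for WT Ngn3 at 8 days and 3 for the 6S-A change. The first technical repeat alone gave 1216 and 1677 at 2 days, 63 for 6S-A against WT, 23 for WT at 8 days, and 2 and 3 for the changes between times; Jag2 then lost its call with 6S-A Ngn3 (adjusted p = 0.293). The mean of both no-color groups gave 180 and 337, and 1 member, Dll4, for WT. Without passage 5 libraries there were 24 and 34 at 8 days and 4 for the 6S-A change.

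Under the replicate block, 4291 genes and 6 members (with Jag2 and Mib1) were called for WT Ngn3 at 2 days, 7 members (with Mib1) for 6S-A, 147 genes for 6S-A against WT, 244 and 397 at 8 days, and 14 and 11 for the changes between times. Deviations of same-numbered samples correlated at 0.075 to 0.392 at 2 days and 0.0985 to 0.554 at 8 days, so not every pair passed 0.1; all 9 and all 12 samples were closest to their own number, a hint from the data. At 8 days the labels put replicate 3 of every group at passage 5, but they do not tie numbers 1 and 2 to a culture.

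Leaving out 1 replicate gave 0 to 5 genes for 6S-A against WT at 2 days and 0 to 2 at 8 days, 8 to 78 (without no-color replicates 1 and 2) for WT and 19 to 80 (lowest without no-color replicate 3) for 6S-A at 8 days, 0 to 1 members for 6S-A at 8 days, and 0 to 24 (highest without no-color replicate 2) and 0 to 2 for the changes between times. It brought Dll3 past the threshold with 6S-A Ngn3 at 2 days without 6S-A replicate 2 (log2 fold change 4.24, adjusted p = 0.0238). Scaling by library size alone moved the median of all genes by 0.25 and 0.17 at 8 days and by 0.21 for the WT change, and filterByExpr by -0.11 for WT at 8 days. The cause of these shifts was not tested. At 8 days, 1 to 3 pools per replicate and few reads limit Dll4, Mfng and Lfng, and Dll3 and Dlk1 could not be tested.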
